A study of Mus musculus with 18 samples.

Results

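The oxidative phosphorylation genes were followed as 94 rows of a bulk RNA-sequencing count table, of 29875 rows in all. A row was taken where its mouse symbol began with Nduf, Uqcr, Cox4, Cox5, Cox6, Cox7, Cox8 or Atp5, or was Sdha, Sdhb, Sdhc, Sdhd or Cyc1, or named a protein-coding gene of mitochondrial DNA, and where its mean over the 18 libraries was at least 1 CPM (counts scaled to a common library size). Of 99 protein-coding rows with such a symbol, 5 were below that level (mt-Nd3, Ndufa4l2, Cox4i2, Cox6a2 and Atp5g2). The 94 were 87 genes of nuclear DNA and 7 genes of mitochondrial DNA (mt-Nd1, mt-Nd2, mt-Nd4, mt-Nd5, mt-Nd6, mt-Cytb and mt-Co1), all of which entered the tests. The annotation lists 13 protein-coding mitochondrial genes, of which 8 had a row in the table used here. mt-Co2, mt-Co3, mt-Atp6, mt-Atp8 and mt-Nd4l had none and were not analysed here.

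The respiratory chain moves electrons through complexes I to IV of the inner mitochondrial membrane and pumps protons, and complex V (ATP synthase) uses the proton gradient to make ATP. Complexes I, III, IV and V combine subunits translated in the cytosol from nuclear genes with subunits made inside the organelle from mitochondrial DNA, which is transcribed by its own polymerase. Complex II (succinate dehydrogenase) is wholly nuclear. In dendritic cells, activation by lipopolysaccharide (LPS) is known for a shift toward glycolysis.

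The cells were dendritic cells grown with GM-CSF from bone marrow of wild-type C57Bl6/J mice aged 8 to 12 weeks, matured on day 8 with 200 ng/ml LPS for 24 h. They were then placed in migration chambers and RNA was taken 5 h after a CCL19 gradient (a chemokine that attracts mature dendritic cells) was set up. In 4 groups the cells sat in bovine collagen gels, from 1.7 mg/ml through 2.6 mg/ml and 3.5 mg/ml up to 4.4 mg/ml, and in 2 groups the same chambers held no collagen (suspension), 1 titled as plus CCL19 and 1 titled without it. Each group had 3 libraries, numbered as biological replicates 1 to 3, and the study asked how migrating cells adapt their transcripts to denser matrices. For the suspension groups, the sample titles and the names of the libraries disagree about which received CCL19, so no direction of a CCL19 effect was drawn. The collagen groups carry CCL19 by their titles, and the gel and the recovery of cells from it cannot be told apart.

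Total counts ran from 13062944 to 28059839 per library, so that 3 counts, taken as the limit of what a count of 0 allows, were 0.107 to 0.230 CPM. The fewest counts for a member were 2, for Cox7c, while mt-Nd1 had at least 12248 in every library. Dendritic cell markers (10 of 10 in the table, 1 called lower in collagen) summed to between 29044 and 102950 CPM. Eosinophil markers were lower in collagen for 7 of 8 genes and summed to 117 to 1339 CPM in suspension (n = 6) and 14.0 to 168 CPM in collagen (n = 12), and their part in the results below was not tested. Neutrophil markers spanned 633 to 9746 CPM, basophil and mast cell markers 27.2 to 265 CPM, macrophage markers 322 to 2172 CPM, and T, B and NK cell markers 0.840 to 13.4 CPM with Ncr1 at 0 in all 6 suspension libraries. Replicate 2 at 4.4 mg/ml stood apart from its number: over all genes its log2 CPM correlated more with the libraries of replicate 1 (mean r = 0.941) than with those of replicate 2 (0.906), a description without a test. Results were therefore also computed without it.

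Nuclear and mitochondrial genes were compared first as sums. In the 6 suspension libraries the 87 nuclear genes summed to 7430, 8049 and 13408 CPM in the group titled without CCL19 and to 8579, 15819 and 12987 CPM in the group titled plus CCL19. The collagen libraries ranged from 8573 to 18128 CPM, with a median of 12908 CPM. These ranges overlapped widely: the lowest collagen library, replicate 3 at 2.6 mg/ml, lay among the 3 lowest suspension libraries. The same 4 libraries had the longest transcripts on average, with a count-weighted geometric mean exon length of 3721 to 4201 bases against at most 3682 bases in the other libraries. The part of that length difference in the sums was not tested, but fits that correct for length are given below.

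The 7 mitochondrial genes summed to 8128, 11703 and 4531 CPM in the suspension group titled without CCL19 and to 8055, 4636 and 3541 CPM in the group titled plus CCL19. In collagen the sums ran from 7700 to 15941 CPM, with a median of 10879 CPM. Thus 3 suspension libraries lay below every collagen library, and the other 3 lay inside the collagen range. As a share of all counts, the mitochondrial genes took 0.384% to 1.45% in suspension and 0.650% to 1.74% in collagen. These sums and shares, and the ratios below, cover 7 of the 13 protein-coding mitochondrial genes and are not the whole mitochondrial output. In bulk RNA, fewer cells of a type and less of a transcript per cell cannot be told apart.

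Library names give 1 date and 1 prefix to each replicate number, and the labels do not say what the prefix stands for. Replicates 1 and 3 share all but the end of the prefix, and replicate 2 has a different prefix. Each replicate holds every group once, and the groups can be set against each other inside it. On the log2 scale, the nuclear sum was higher in collagen by 0.69 in replicate 1, 0.21 in replicate 2 and 0.07 in replicate 3. The mitochondrial sum was higher by 0.53 and 0.60 in replicates 1 and 2, and in replicate 3 it averaged 9858 CPM in collagen against 4006 CPM in suspension. The ratio of mitochondrial to nuclear sum therefore had no common direction: it differed by -0.16, 0.40 and 1.23 (collagen minus suspension). In suspension the ratio itself ran from 0.273 to 1.45, and in collagen from 0.554 to 1.22.

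**Figure D1:**
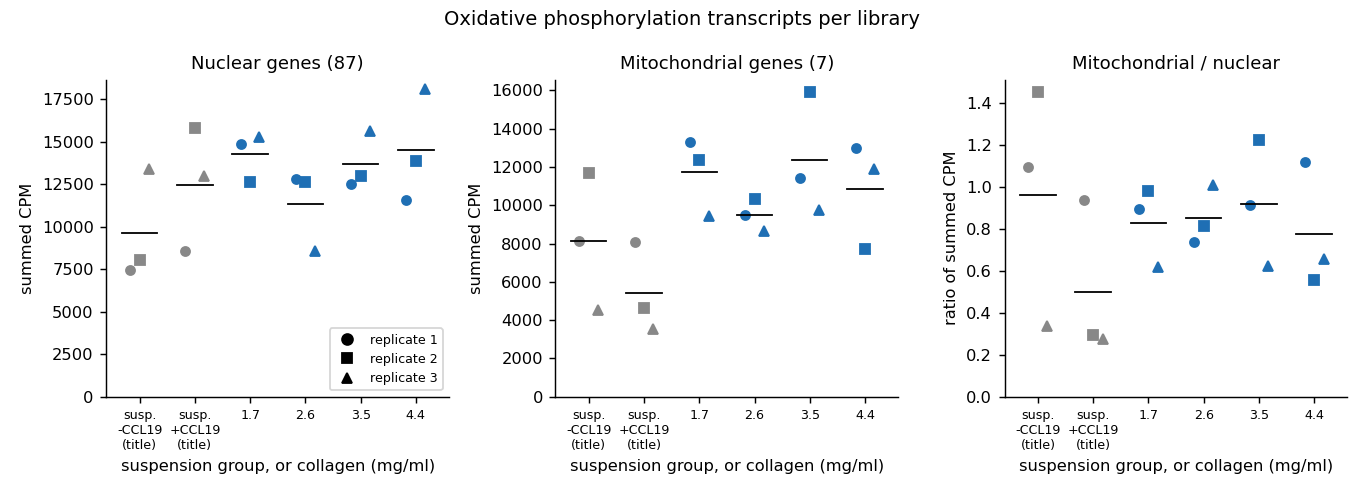
Summed CPM of the 87 nuclear genes (left) and the 7 mitochondrial genes (middle), and the ratio of the sums (right), for each library, with suspension in grey, collagen in blue, 1 marker shape per replicate and a line at each group mean. The mitochondrial to nuclear ratio spans 0.273 to 1.45 within suspension alone, a wider range than the 0.554 to 1.22 of collagen.

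Gene by gene, 14 of 87 nuclear genes (16.1%) were called higher and 1 (1.15%) lower in collagen than in suspension by edgeR's quasi-likelihood test at a Benjamini-Hochberg false discovery rate of 0.1. Over all 13844 genes tested, 7.78% were called higher and 12.4% lower. The median log2 fold change was 0.26 for the nuclear genes, 0.47 for the 7 mitochondrial genes and 0.00269 for all genes. Of the mitochondrial genes, 2 of 7 were called higher and none lower by edgeR (3 of 7 had an unadjusted p under 0.05, and DESeq2 called 3). A fit with a block for the replicate, which removes differences between replicates, gave 22 higher and 3 lower among the nuclear genes and 3 higher among the mitochondrial genes, against 15.6% higher and 19.3% lower of all genes. Without replicate 2 at 4.4 mg/ml the blocked fit called 28 nuclear genes higher and 3 lower and 6 of 7 mitochondrial genes higher, against 17.1% and 20.5% of all genes.

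These calls leaned on single libraries and on a correction for GC content and transcript length. The number of nuclear genes called was 15 in the unblocked fit, and 7, 4, 6 and 7 on leaving out suspension titled without CCL19 replicate 1, titled without CCL19 replicate 2, titled plus CCL19 replicate 1 or titled plus CCL19 replicate 3. Calls over all genes are not given for these fits, so the drop need not be particular to the members. With the block and GC and length offsets, the fit called 20 nuclear genes higher and 6 lower, beside 18.9% and 18.1% of all genes, and 12 of the 14 nuclear genes called higher in the unblocked fit were among them. With the offsets and no block, 6 of those 14 and 0 of the 2 mitochondrial genes were called higher. In the fit with the block and the offsets the median of the mitochondrial genes was -0.02 and that of the nuclear genes 0.14. That fit called 1 mitochondrial gene. The mitochondrial genes are poor in GC, with a median of 37.1% against 49.7% for the 14 nuclear genes called higher and 50.0% for the other 73 nuclear genes.

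**Figure D2:**
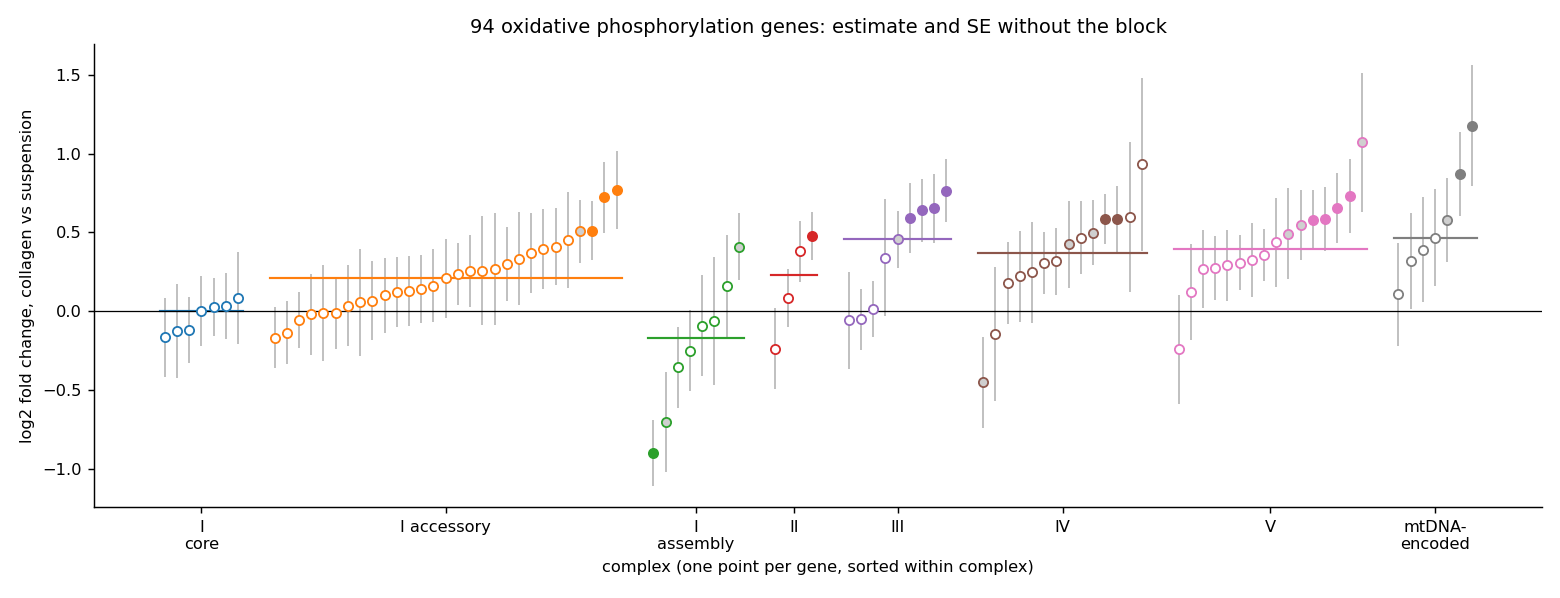
Log2 fold change (collagen minus suspension, without the block) of each of the 94 genes by complex, with bars of 1 standard error and a line at the median of each class. Filled points passed a false discovery rate of 0.1 without the block, grey-filled points only with the block, and the core and assembly classes of complex I hold no point called higher without the block.

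Complex I is the NADH dehydrogenase that feeds electrons into the chain, and its 7 nuclear core subunits carry the redox centres. None of the 7 was called in collagen against suspension by edgeR or DESeq2 and 0 had an unadjusted p under 0.05, and their median log2 fold change was 0.00187.

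The 29 accessory subunits, which surround the core without carrying electrons, had a median of 0.21. In this class 3 were called higher (Ndufa2, Ndufa7 and Ndufb2), where 7.78% of all genes were called higher. Ndufa2, a small matrix-side subunit, measured 65.8, 72.4 and 122 CPM in the suspension group titled without CCL19 and 73.5, 161 and 123 CPM in the group titled plus CCL19. In collagen it ran from 90.1 to 277 CPM with a median of 180 CPM, and 7 of 12 libraries exceeded every suspension library. Its log2 fold change was 0.77 ± 0.25 (± gives the standard error, SE; edgeR adjusted p = 0.0510), with the mean higher in all 3 replicates. Ndufb2 had a log2 fold change of 0.72 ± 0.23 (edgeR adjusted p = 0.0436), from 6.74 to 25.3 CPM in suspension and 11.1 to 29.9 CPM in collagen.

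The 8 assembly factors of complex I, which help build the enzyme but are not part of it, had a median of -0.17. Of the 8, 1 was called lower and none higher, where 12.4% of all genes were called lower and 7.78% higher. Ndufaf7, an arginine methyltransferase that modifies a core subunit, was the only nuclear gene called lower without the block. It measured 5.80, 8.75, 11.5, 7.46, 9.73 and 12.2 CPM in the 6 suspension libraries. In collagen it ran from 3.11 to 6.91 CPM with a median of 4.69 CPM, so that only the lowest suspension library fell within the collagen range. It differed by a log2 fold change of -0.90 ± 0.21 (edgeR adjusted p = 0.0105), and the call held without each of the 18 libraries in turn, but was lost without replicate 2 or replicate 3 as a whole (edgeR adjusted p = 0.190 and 0.111). Ndufaf1 passed only with the block (log2 fold change -0.74 ± 0.19, edgeR adjusted p = 0.00825). Ndufaf5 also passed only with the block and in the other direction (0.42 ± 0.17, edgeR adjusted p = 0.0831). Ndufaf3 and Ndufaf8, next in size among negative values, did not pass, at -0.36 ± 0.26 and -0.25 ± 0.26.

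Complex II passes electrons from succinate to ubiquinone. Sdhd, one of its pair of membrane anchors, measured 170, 129, 132, 177.5, 132 and 129 CPM in suspension and 161 to 231 CPM in collagen, with a median of 210 CPM. Inside each replicate all 4 collagen libraries lay above both suspension libraries. Its log2 fold change was 0.48 ± 0.15 (edgeR adjusted p = 0.0452), and 0.27 (edgeR adjusted p = 0.113) with the block and the GC and length offsets. The other anchor, Sdhc, did not pass at 0.38 ± 0.19. The catalytic subunit Sdha had the most counts of this complex (106 to 356 CPM in suspension, 133 to 308 CPM in collagen) and a log2 fold change of -0.24 ± 0.25, and the iron-sulphur subunit Sdhb had 0.08 ± 0.18; neither passed.

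Complex III, the cytochrome bc1 complex, passes electrons from ubiquinol to cytochrome c. Of its 9 nuclear genes 4 were called higher (Uqcr10, Uqcr11, Uqcrh and Uqcrq, all small subunits) and none lower, with a class median of 0.46. Among all genes 7.78% were called higher and 12.4% lower. Uqcr10 measured 70.6, 75.4 and 101 CPM in the suspension group titled without CCL19 and 91.8, 167 and 110 CPM in the group titled plus CCL19. Collagen libraries ran from 95.8 to 238 CPM, with a median of 175 CPM, and the lowest was again replicate 3 at 2.6 mg/ml. The log2 fold change was 0.76 ± 0.20 (edgeR adjusted p = 0.0190), and it was 0.48 (edgeR adjusted p = 0.00670) with the block and the offsets. Uqcr10 was called without each of the 18 libraries in turn, but not without replicate 1 or replicate 2 as a whole (edgeR adjusted p = 0.181 and 0.119). The Rieske iron-sulphur protein Uqcrfs1 passed only with the block (0.44 ± 0.14, edgeR adjusted p = 0.0247). The other 4 genes did not pass: Uqcrc1 was at -0.05 ± 0.19, Uqcrc2 at -0.06 ± 0.31, cytochrome c1 (Cyc1) at 0.02 ± 0.18 and Uqcrb at 0.34 ± 0.37.

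Complex IV, cytochrome c oxidase, reduces oxygen. Cox7a2l and Cox4i1 were called higher among its 14 nuclear genes and none was called lower without the block. Among all genes 7.78% were called higher and 12.4% lower. Cox7a2l measured 86.8, 73.9, 112, 100, 120 and 110 CPM in suspension. In collagen it ran from 120 to 204 CPM with a median of 144 CPM, and all 12 libraries lay above all 6 suspension libraries, the closest pair being 119.6 and 119.9 CPM. How many of all genes are separated in this way was not counted. For the weaker separation inside each replicate, 2.43% of all genes lay above and 4.19% below. The log2 fold change was 0.58 ± 0.16 (edgeR adjusted p = 0.0220), and 0.43 (edgeR adjusted p = 0.00932) with the block and the offsets. Its call held without each library in turn, but was lost without replicate 1 or replicate 2 as a whole (edgeR adjusted p = 0.140 and 0.192). Of its 50-base windows 17.7% are shared with the pseudogene Gm6969.

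Cox4i1, the isoform of subunit 4 found in most tissues and the most counted gene of complex IV, ran from 350 to 849 CPM in suspension (median 535) and from 399 to 1089 CPM in collagen (median 851). Its log2 fold change was 0.59 ± 0.21 (edgeR adjusted p = 0.0724), but the call was lost on leaving out any of 10 single libraries. Its hypoxia-linked partner Cox4i2 was below 1 CPM. The same held for the muscle isoform Cox6a2, while the ubiquitous Cox6a1 had 0.32 ± 0.21 and did not pass. Among the other isoforms, Cox6b1 (0.31 ± 0.20), Cox7a2 (0.18 ± 0.26), Cox7a1 (0.60 ± 0.48) and Cox8a (0.47 ± 0.23) did not pass either, nor did the testis form Cox6b2, and the muscle form Cox7a1 averaged 1.80 CPM.

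Cox6c and Cox5a passed only with the block, at 0.44 ± 0.15 (edgeR adjusted p = 0.0373) and 0.46 ± 0.19 (edgeR adjusted p = 0.0817). Cox6c had a narrow range in suspension, 39.9 to 45.8 CPM, and 10 of 12 collagen libraries (33.8 to 88.6 CPM) lay above it. Ndufa4, first assigned to complex I and now placed in complex IV, was the only gene of the class called lower with the block (-0.58 ± 0.18, edgeR adjusted p = 0.0228). It measured 14.3 to 27.9 CPM in suspension and 8.04 to 25.8 CPM in collagen. The groups differed in replicate 1 and overlapped in replicate 3: in replicate 1 the collagen libraries had 8.04 to 10.6 CPM against 18.3 and 18.9 CPM, whereas in replicate 3 they had 20.4 to 25.8 CPM against 24.5 and 24.2 CPM.

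Complex V holds the ATP synthase. Of its 16 nuclear genes, 4 were called higher (Atp5e, Atp5k, Atp5g3 and Atp5f1) and none lower, where 7.78% of all genes were called higher. In the class 15 had a positive log2 fold change, with a median of 0.40. Atp5e, the small epsilon subunit of the catalytic head, measured 139, 135 and 259 CPM in the suspension group titled without CCL19 and 174, 283 and 306 CPM in the group titled plus CCL19. Collagen libraries ran from 179 to 556 CPM with a median of 372 CPM. For Atp5e the log2 fold change was 0.73 ± 0.23 (edgeR adjusted p = 0.0475), and 0.62 (edgeR adjusted p = 0.0146) with the block and the offsets. Atp5k followed at 0.65 ± 0.22 (edgeR adjusted p = 0.0601).

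The catalytic beta subunit Atp5b was the most counted nuclear gene at a mean of 1741 CPM, and its log2 fold change of 0.31 ± 0.17 did not pass. Of the genes for the c-ring, Atp5g3 passed (0.58 ± 0.19, edgeR adjusted p = 0.0537), Atp5g1 did not (0.12 ± 0.31) and Atp5g2 was below 1 CPM. With the block and the offsets together, 9 of the 16 genes of complex V were called higher and none lower, in a fit that called 18.9% of all genes higher.

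**Figure D3:**
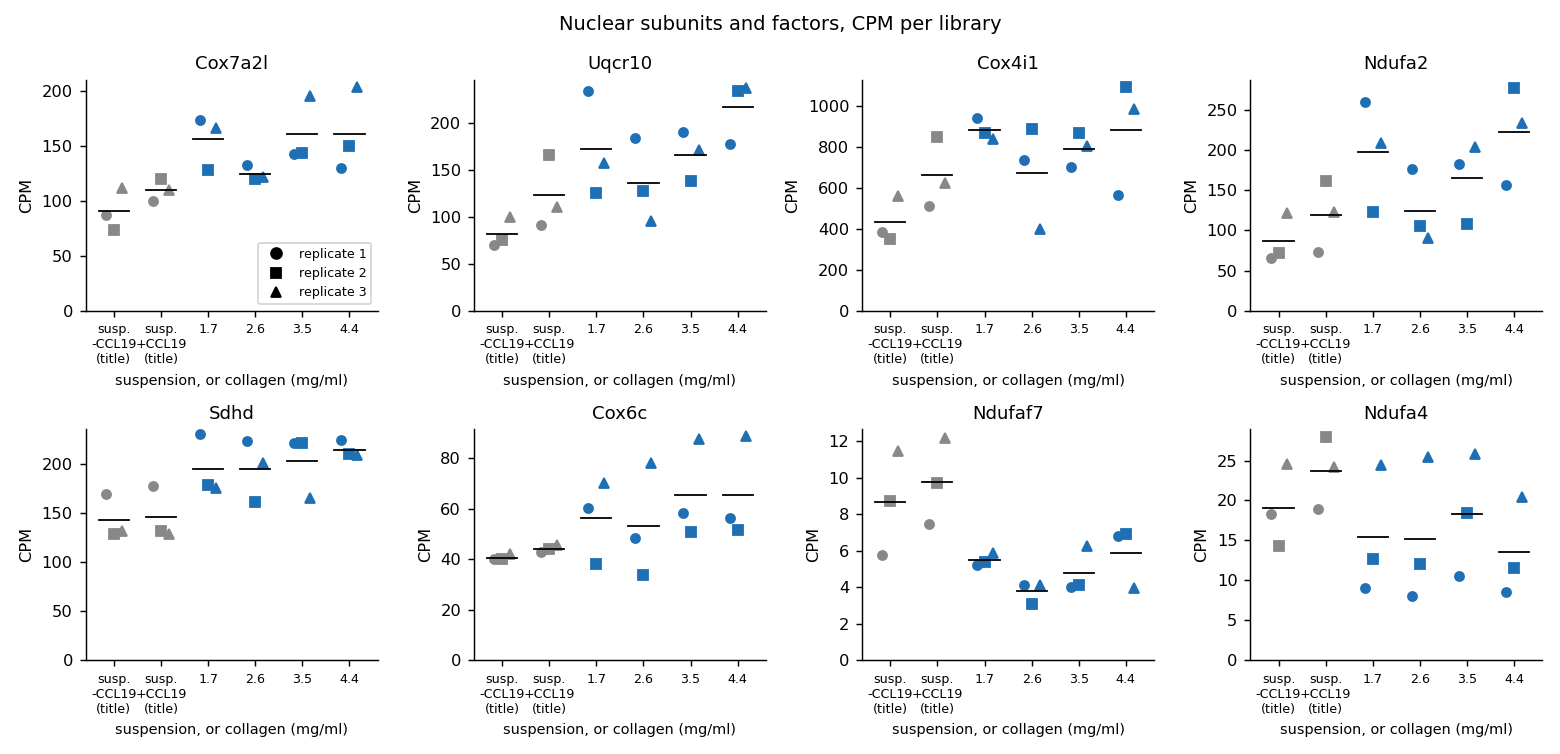
CPM of 8 nuclear genes in each library, with suspension in grey, collagen in blue, 1 marker shape per replicate and a line at each group mean. All 12 collagen libraries exceed all 6 suspension libraries for Cox7a2l, a separation that was not counted over all genes. Ndufa4 splits by replicate, from 8.04 CPM in replicate 1 to 25.8 CPM in replicate 3 of collagen.

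The promoters of 3 of the nuclear genes that rose are shown. Each holds, within the 120 bases before the gene start, a core motif of a factor known to act on respiratory genes. Atp5h, Atp5j, Ndufa11, Ndufa8 and Ndufaf4 also hold 1 there and were not called higher without the block. The 3 were picked by their calls, so they do not link a motif to a rise. Sequences are from RefSeq on GRCm38.p6, 5′ to 3′ on the strand of the gene, all on the minus strand, at chr5:108434400-108434519, chr10:80406822-80406941 and chr4:116075071-116075190. Capitals mark the NRF1 core CGCATGCG in Atp5k and the ETS core CCGGAAGT, on either strand, in Uqcr11 and Uqcrh. The NRF1 core also occurs in the promoter of Uqcr11, where it begins 5 bases before the gene start and so runs past the end of the stretch shown.
Atp5k: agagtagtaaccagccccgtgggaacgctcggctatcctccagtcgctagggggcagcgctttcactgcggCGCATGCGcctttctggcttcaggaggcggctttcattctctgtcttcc
Uqcr11: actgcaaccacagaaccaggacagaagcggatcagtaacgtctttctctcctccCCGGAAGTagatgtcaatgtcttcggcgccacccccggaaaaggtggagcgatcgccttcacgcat
Uqcrh: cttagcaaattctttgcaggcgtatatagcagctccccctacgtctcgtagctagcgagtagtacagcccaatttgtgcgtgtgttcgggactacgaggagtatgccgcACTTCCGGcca

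Over the window from 250 bases before to 50 bases after the start, both strands, 73 of the 87 nuclear genes had an entry. The NRF1 core was in 10 of 73 (13.7%), against 2.07% of 27025 promoters. The ETS core was in 5 of 73 (6.85%, against 4.31%) and the YY1 core AAGATGGCG in 8 of 73 (against 1.64%). In collagen without the block, 16.1% of the 87 nuclear genes were called higher. Atp5k and Uqcr11 with the NRF1 core and Uqcr11 and Uqcrh with the ETS core were among them, and none of the 8 with the YY1 core. With so few genes per motif, these calls do not set one motif apart from another. The 27025 promoters were not limited to expressed genes. A match describes letters in the sequence and not binding.

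The mitochondrial genes encode membrane subunits: mt-Nd1, mt-Nd2, mt-Nd4, mt-Nd5 and mt-Nd6 of complex I, mt-Cytb of complex III and mt-Co1, the catalytic subunit of complex IV. Per kilobase of all annotated exons of a gene merged, their levels ran from 417 CPM per kb for mt-Nd5 to 2578 for mt-Co1. On this measure all but mt-Nd5 lay above the nuclear genes, of which Cox4i1 (464), Cox6a1 (453) and Atp5b (411) were the highest. Merged exons are longer than the longest transcript for Cox4i1 (1550 against 765 bases) and Atp5b (4237 against 1916), but not for mt-Co1 (1545 for both). The order of nuclear and mitochondrial genes therefore depends on the length used. Mitochondrial copies in nuclear DNA share sequence with them: 51.1% of the 50-base windows of mt-Co1 and 62.2% of those of mt-Nd4 occur in other annotated genes. Counts assigned to the nuclear copies were small, with 1498 for Gm13340 over the 18 libraries as the largest value and 2 for Gm28439, the copy of mt-Nd4.

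mt-Co1 (chrM:5328-6872, GRCm38) gave the largest difference of the mitochondrial genes. It measured 3748, 3009 and 858 CPM in the suspension group titled without CCL19 and 3811, 864 and 802 CPM in the group titled plus CCL19. Collagen libraries ran from 2722 to 7096 CPM with a median of 5085 CPM. The highest suspension libraries overlapped the lowest collagen ones across replicates, but inside each replicate all 4 collagen libraries lay above both suspension libraries. Over all genes tested such separation was found for 2.43% upward and 4.19% downward, and among the members it held upward for mt-Co1, Sdhd and Cox7a2l and downward for none. The log2 fold change of mt-Co1 was 1.18 ± 0.38 (edgeR adjusted p = 0.0531), 1.36 ± 0.25 (edgeR adjusted p = 0.000636) with the block and 0.95 (edgeR adjusted p = 0.00511) with the block and the offsets. The unblocked call was lost without suspension titled without CCL19 replicate 3 or titled plus CCL19 replicate 2 or 3, the 3 libraries with the lowest values.

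mt-Nd4 measured 369, 829 and 393 CPM in the suspension group titled without CCL19 and 356, 419 and 350 CPM in the group titled plus CCL19. In collagen it ran from 285 to 1187 CPM with a median of 903 CPM, and the lowest value was that of replicate 2 at 4.4 mg/ml. The log2 fold change was 0.87 ± 0.27 (edgeR adjusted p = 0.0406) and 0.37 (edgeR adjusted p = 0.194) with the block and the offsets, which ended the call, as did leaving out suspension titled without CCL19 replicate 3. mt-Cytb passed only with the block (0.61 ± 0.25, edgeR adjusted p = 0.0836), and its value with the block and the offsets was 0.14.

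The remaining 4 did not pass with or without the block. Without it, mt-Nd1 was at 0.47 ± 0.31, mt-Nd6 at 0.39 ± 0.34, mt-Nd2 at 0.32 ± 0.31 and mt-Nd5 at 0.11 ± 0.33, and each of these was negative with the GC and length offsets. mt-Nd2 had its lowest value of all libraries, 166 CPM, in replicate 2 at 4.4 mg/ml against 477 CPM or more elsewhere. The same library was lowest for mt-Nd4 and mt-Nd5 (248 CPM) but not for mt-Co1, where it had 5106 CPM. Without it, mt-Nd1, mt-Nd2 and mt-Nd6 passed in the blocked fit (edgeR adjusted p = 0.00702, 0.0343 and 0.0338).

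**Figure D4:**
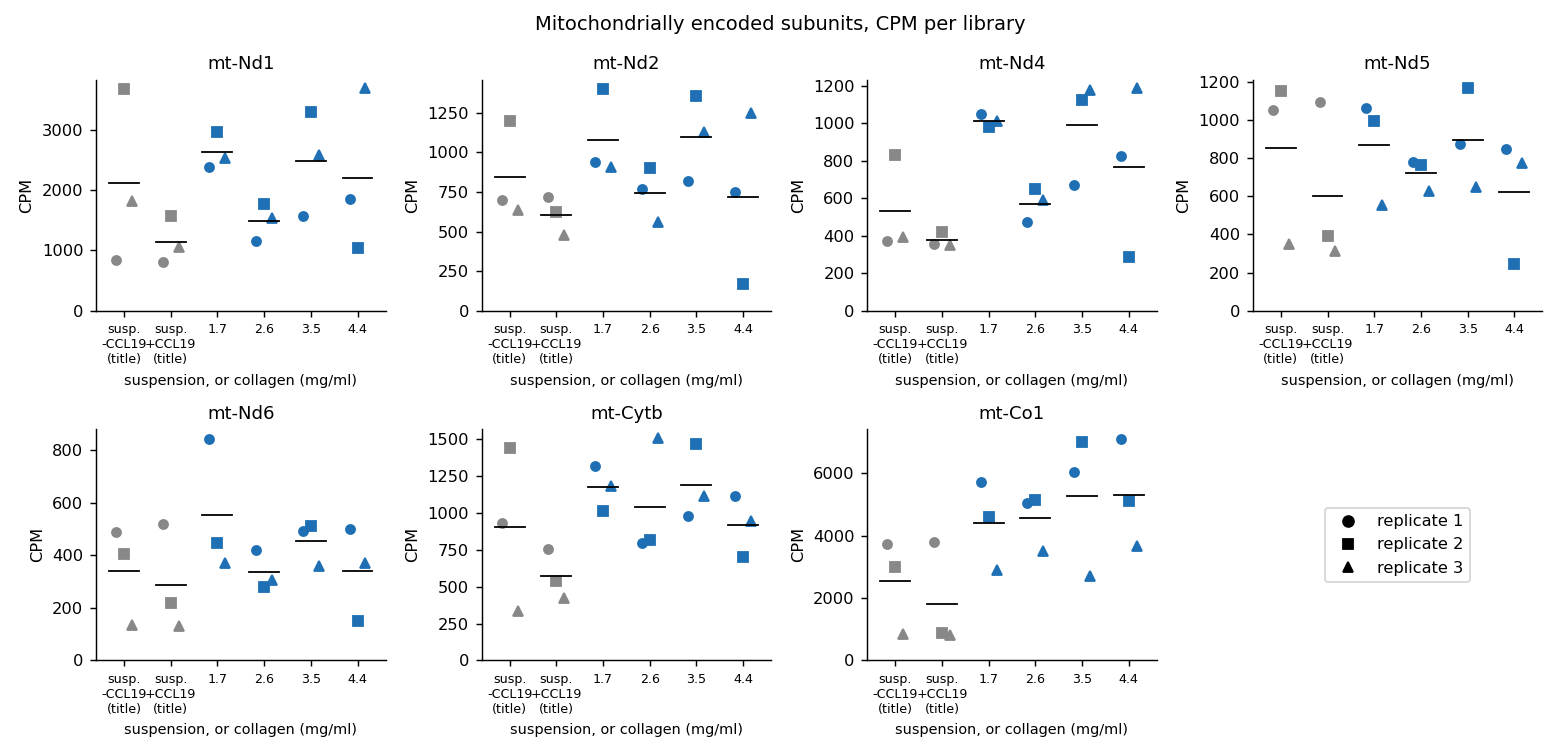
CPM of the 7 mitochondrial genes in each library, with suspension in grey, collagen in blue, 1 marker shape per replicate and a line at each group mean. In each replicate mt-Co1 is higher in the 4 collagen libraries (2722 to 7096 CPM over all replicates) than in the 2 suspension libraries (802 to 3811 CPM).

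The 4 densities were then each set against the same 6 suspension libraries. At 1.7 mg/ml none of the 94 members passed without the block by edgeR, where 17 had an unadjusted p under 0.05, DESeq2 called 1, and 0.0361% of all genes were called higher and 0 lower. With the block Cox7a2l, mt-Nd4 and mt-Co1 passed (edgeR adjusted p = 0.0929, 0.0750 and 0.0685), against 1.5% higher and 1.42% lower of all genes. At 2.6 mg/ml Ndufaf7 alone passed without the block (-1.28 ± 0.32, edgeR adjusted p = 0.0448), against 4.29% and 3.58% of all genes. With the block Sdhd, Atp5l, Cox7c and mt-Co1 were also called higher, against 12% and 9.62%. Cox7c and Atp5l are counted at 1.03 and 1.41 CPM on average, and 27.9% and 7.49% of their windows are shared with other genes.

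At 3.5 mg/ml only mt-Nd4 passed without the block (1.15 ± 0.35, edgeR adjusted p = 0.0964), against 1.97% and 2.93% of all genes, and the call was lost on leaving out any of 13 single libraries, those of all 3 replicates at 3.5 mg/ml among them. With the block 9 nuclear genes were called higher, 1 lower and 2 mitochondrial genes higher, against 8.03% and 10.4%. At 4.4 mg/ml 8 nuclear genes were called higher (Uqcr10, Ndufa2, Uqcr11, Ndufb2, Atp5e, Uqcrh, Cox7a2l and Sdhd), against 6.55% of all genes, and Ndufaf1 lower (-1.46 ± 0.49, edgeR adjusted p = 0.0722), against 8.29%. Uqcr10 had the smallest p there, at 1.11 ± 0.27 (edgeR adjusted p = 0.0153). The count of 9 was 3 without replicate 2 or replicate 3 of that group, and to 4 or 5 without suspension titled without CCL19 replicate 2 or titled plus CCL19 replicate 3. With the block the counts at 4.4 mg/ml were 18 higher and 2 lower, and mt-Co1 and mt-Nd4 passed, against 15.8% and 16.2%.

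Along the densities the medians of the blocked fit did not run in 1 direction. The nuclear genes had medians of 0.37, 0.08, 0.37 and 0.30 from the lowest to the highest density, and the mitochondrial genes 0.86, 0.24, 0.71 and 0.38. With the GC and length offsets added to the block, they were 0.20, -0.02, 0.28 and 0.08 for the nuclear genes and 0.44, -0.32, 0.04 and -0.16 for the mitochondrial genes. In either fit both were lowest at 2.6 mg/ml, the group that holds the long-transcript library of replicate 3. Fitted as a slope per mg/ml across the 12 collagen libraries, none of the 94 members was called by edgeR with or without the block (1 had an unadjusted p under 0.05 in each, and DESeq2 called 0), where 0.00722% of all genes rose and 0 fell without the block and 0.802% rose and 0.65% fell with it. The median slope without the block was 0.03 for the nuclear and -0.10 for the mitochondrial genes. Ndufaf1 came closest, with a slope of -0.40 ± 0.11 log2 per mg/ml (edgeR adjusted p = 0.118, with the block). It measured 12.5 ± 7.09, 9.69 ± 2.72, 10.1 ± 6.50 and 5.30 ± 2.59 CPM at the 4 densities (mean and SD, n = 3 each).

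**Figure D5:**
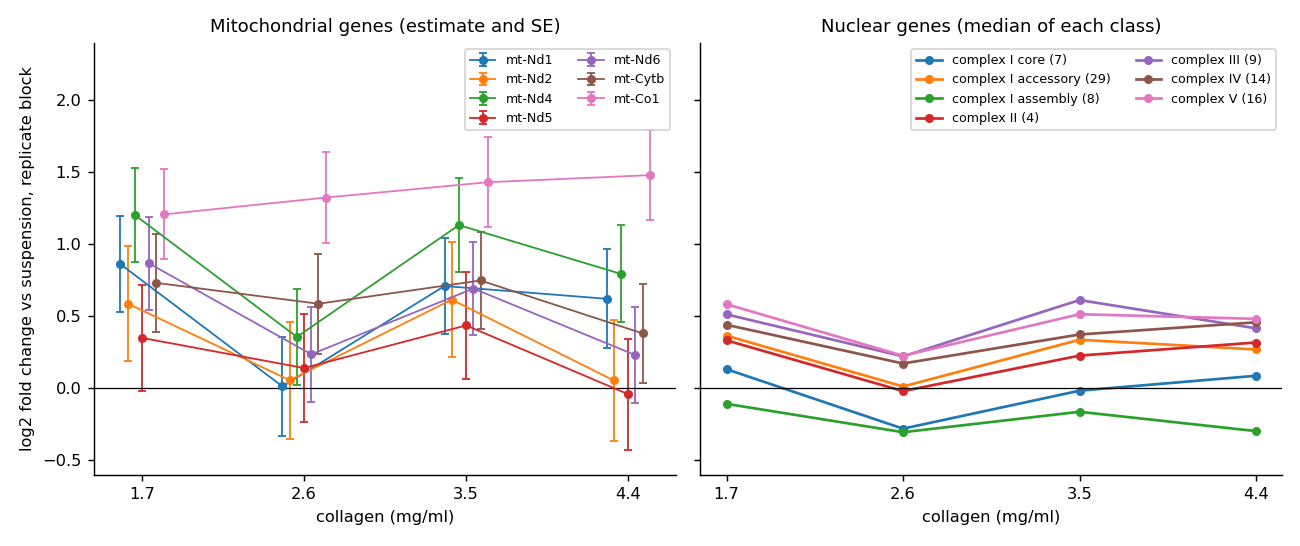
Log2 fold change against suspension at each collagen density in the fit with the replicate block, with bars of 1 standard error for the 7 mitochondrial genes (left) and class medians for the nuclear genes (right, number of genes in brackets). mt-Co1 lies between 1.21 and 1.48 at every density, and the median of every class is lowest at 2.6 mg/ml, with the complex I assembly factors between -0.30 and -0.11 throughout.

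The 2 suspension groups differed from each other in no member by edgeR, with or without the block, where 2 and 5 members had an unadjusted p under 0.05, DESeq2 called 0 members and 0 of all genes passed. The estimates nevertheless pointed in opposite directions for the genomes. Titled plus CCL19 minus titled without, 74 of 87 nuclear genes were positive with a median of 0.39, and all 7 mitochondrial genes were negative with a median of -0.50. With the GC and length offsets the medians were 0.19 for the nuclear genes and -0.02 for the mitochondrial genes. Of the latter 3 of 7 were positive, so the opposite direction depended on that setting. The summed CPM differed most in replicate 2. There the nuclear sum was 8049 CPM titled without CCL19 and 15819 CPM titled plus, and the mitochondrial sum 11703 and 4636 CPM. In replicate 1 the nuclear sums were 7430 and 8579 CPM and the mitochondrial sums 8128 and 8055 CPM. In replicate 3 both fell, from 13408 to 12987 CPM and from 4531 to 3541 CPM.

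Other genes of the pathway were counted from lists for comparison, in collagen against suspension without the block, where 7.78% of all genes were called higher and 12.4% lower. Of 27 genes for the expression of mitochondrial DNA, 2 were called higher and 5 lower, with a median of 0.00295. The lower ones included the mitochondrial DNA polymerase Polg (-1.26 ± 0.30, edgeR adjusted p = 0.0110), the RNA helicase Supv3l1 (-0.72 ± 0.17, edgeR adjusted p = 0.0123) and the tRNA-processing enzyme Elac2 (-0.60 ± 0.17, edgeR adjusted p = 0.0298). Of 10 regulators of mitochondrial biogenesis only the transcription factor Yy1 was called, and it was higher (1.06 ± 0.18, edgeR adjusted p = 0.00161). It ran from 45.5 to 87.7 CPM in suspension and from 74.1 to 202 CPM in collagen.

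Of 32 electron carriers and assembly factors of complexes III to V, 2 were higher and 3 lower. The heme A synthase Cox15 (-0.90 ± 0.21, edgeR adjusted p = 0.00987), the mt-Co1 translation factor Taco1 (-0.91 ± 0.23, edgeR adjusted p = 0.0162) and the complex III assembly factor Uqcc1 (-0.50 ± 0.14, edgeR adjusted p = 0.0242) fell. Of 27 genes of the TCA cycle and pyruvate entry, 2 were higher and 4 lower, led by the pyruvate dehydrogenase kinase Pdk3 (0.68 ± 0.18, edgeR adjusted p = 0.0187) and by Dlst and Ogdh, parts of the 2-oxoglutarate dehydrogenase complex (-0.42 ± 0.13 and -0.53 ± 0.17, edgeR adjusted p = 0.0443 and 0.0462). With the block and the offsets Dlst and Ogdh no longer passed (edgeR adjusted p = 0.148 and 0.115).

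Among 8 carriers for adenine nucleotides, phosphate and protons, 3 were higher and none lower. The phosphate carrier Slc25a3 and the adenine nucleotide carrier Slc25a5 had 0.41 ± 0.15 each (edgeR adjusted p = 0.0873 and 0.0740), and with the block and the offsets neither passed (edgeR adjusted p = 0.109 and 0.100). The uncoupling protein Ucp1 also passed (edgeR adjusted p = 0.0268), at 0 to 0.415 CPM in suspension and 0 to 11.4 CPM in collagen, so no fold is given. Of 77 mitochondrial ribosomal proteins, 2 were higher and 2 lower, with a median of 0.03. Mrps6 (1.38 ± 0.18, edgeR adjusted p = 0.000479) and Mrpl45 (1.06 ± 0.20, edgeR adjusted p = 0.00347) rose and Mrpl10 fell (-0.82 ± 0.18, edgeR adjusted p = 0.00702). With the block the mitochondrial ribosomal proteins gave 6 higher and 7 lower of 77, against 15.6% and 19.3% of all genes.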

How the data were processed

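The authors deposited a table of raw counts per gene for 18 libraries of stranded mRNA, aligned with STAR 2.7.0f to GRCm38 per the labels and the study's methods. The counting tool and its treatment of reads with several matches are not given in the sources used here. Gene symbols, biotypes, exon lengths and GC content came from the GENCODE vM21 annotation of the same build (29866 of 29875 identifiers matched).

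Counts were fitted in edgeR 4.0.16 under R 4.3.3, with TMM scaling, filterByExpr (13844 genes kept) and 1 quasi-likelihood fit of 6 group means over all 18 libraries. P-values were adjusted by Benjamini-Hochberg over all genes tested at 0.1. CPM are counts over the TMM-scaled library size of the genes kept. The rule of 1 CPM for members and the limit of 3 counts used total counts without TMM. SE is the log2 fold change divided by the square root of F. The members and lists were chosen with earlier results of these data known, and the subunit classes were set afterward. Named were the mitochondrial genes, the 5 largest positive and negative log2 fold changes among called nuclear genes, the most counted genes of the complexes, Sdha to Sdhd, the isoform pairs and up to 3 called genes per pathway list; any other named gene was chosen after its values were seen, and 1 gene that the rule names is not reported here.

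Same-numbered libraries share a date and a prefix in the library names. Deviations from group means correlated at a mean r of 0.434 over 45 same-numbered pairs and -0.214 over 90 other pairs, and without replicate 2 at 4.4 mg/ml at 0.484 over 40. Alternatives were the replicate block, DESeq2 1.42.0, its size factors, no filter, scaling without mitochondrial rows, loess offsets on GC content and length, and omission of each library or replicate. Tested on simulated data for collagen against suspension (13844 genes), the main fit recovered 95% of 100 genes changed by 2 on the log2 scale. It recovered 45% of 100 changed by 1, and the blocked fit recovered 95% and 38%. The simulated counts held no shared replicate effect and only well-counted genes were changed, so these rates need not hold for the libraries here.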

Additional observations from a re-analysis of the deposited data

Results flagged for a closer look

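Among 36 values tested in the 6 suspension libraries, 3 had 1 library far above the rest, where chance gives about 1 in 20. All 3 were replicate 2 of the group titled without CCL19: mt-Nd1 at 3670 CPM (next 1822), mt-Nd2 at 1197 CPM (next 718) and mt-Nd4 at 829 CPM (next 419). That library also had the longest count-weighted mean exon length (4201 bases), and its part in these values was not tested.

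The 2 mitochondrial ribosomal RNA rows, which are not protein-coding and stand outside the 94 genes, also differed. mt-Rnr1 had a log2 fold change of 1.25 ± 0.32 (edgeR adjusted p = 0.0157) and mt-Rnr2 1.97 ± 0.45 (edgeR adjusted p = 0.00997) in collagen against suspension. mt-Rnr2 ran from 513 to 2429 CPM in suspension and reached 17373 CPM in replicate 3 at 4.4 mg/ml, against 1439 CPM in replicate 2 of that group. With the block and the GC and length offsets they were at 0.65 and 1.54 (edgeR adjusted p = 0.0295 and 0.000703). With the offsets and no block they were at 0.59 and 1.46 (edgeR adjusted p = 0.150 and 0.0146), and mt-Rnr1 no longer passed. The libraries were made by selection of polyadenylated RNA, and the part of that step was not tested.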

How the results depend on the processing

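Counts below are members called in either direction by edgeR unless DESeq2 is named, and the cause of each change was not tested. Of all 13844 genes, 2790 were called in collagen against suspension without the block and 4823 with it. At the 4 densities in rising order these were 5 and 403, 1090 and 2990, 679 and 2551, and 2054 and 4420. Calls over all genes are not given here for the other settings, so a change in the counts below need not be particular to the members. In collagen against suspension, the 15 nuclear calls became 25 with the replicate block, 26 with the block and GC and length offsets, 31 with the block without 4.4 mg/ml replicate 2 (an alternative chosen after seeing the data) and 4 with no filter on low counts. The 2 mitochondrial calls became 0 with the offsets, 1 with the block and offsets and 6 with the block without that library. Leaving out 1 library or replicate gave 0 to 18 nuclear and 0 to 3 mitochondrial calls.

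At 1.7 mg/ml, 0 nuclear calls became 1 with the block, 3 with the block and offsets and 7 with the block without that library, and 0 mitochondrial calls became 2 with the block, 1 with DESeq2 and 4 with the block without that library. At 2.6 mg/ml, 1 nuclear call became 4 with the block, 2 with DESeq2, 0 with no filter, 7 with the block and offsets and 7 with the block without that library, and 0 mitochondrial calls became 1 with the block, no filter, the block and offsets, or the block without that library. At 3.5 mg/ml, 0 nuclear calls became 10 with the block, 3 with DESeq2, 1 with DESeq2's size factors, 16 with the block and offsets and 16 with the block without that library, and 1 mitochondrial call became 2 with the block, DESeq2 or no filter, 0 with the offsets and 5 with the block without that library. At 4.4 mg/ml, 9 nuclear calls became 20 with the block, 14 with DESeq2, 3 with no filter, 4 with the offsets, 18 with the block and offsets and 19 with the block without that library, and 0 mitochondrial calls became 2 with the block, 4 with the block without that library and 1 with DESeq2, its size factors, no filter, or the block and offsets. Leave-one-out ranges at the 4 densities were 0 to 0, 0 to 3, 0 to 1 and 0 to 13 nuclear and 0 to 0, 0 to 1, 0 to 1 and 0 to 1 mitochondrial calls. In the density trend 0 nuclear calls became 1 (lower) with the block and offsets.

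With the offsets, and with the block and offsets, the log2 fold changes turned negative for mt-Nd1 (-0.081, -0.018), mt-Nd2 (-0.28, -0.26), mt-Nd5 (-0.32, -0.19) and mt-Nd6 (-0.43, -0.24), and positive for Uqcrc1 (0.13, 0.14). Cox7a2 turned to -0.0050 with the offsets. On leaving out 1 library or replicate, genes that were not called also changed sign: mt-Nd5 (-0.15 to 0.51), Uqcrc1 (-0.18 to 0.14), Sdhb (-0.091 to 0.25), Cox6b2 (-0.36 to 0.24), Cox7a2 (-0.094 to 0.43) and Atp5g1 (-0.14 to 0.52). Counts were low for Cox7c, with as few as 2 in a library, and for the 5 genes below 1 CPM. The cause was not tested. The share of windows found in other genes was 98.0% for mt-Nd3, 27.9% for Cox7c and 14.8% for Atp5g2. It was 3.33% for Cox6a2 and 0% for Cox4i2 and Ndufa4l2.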
